A study of Mus musculus with 10 samples.

Results

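The genes described here are 10 textbook transcriptional targets of the tumour suppressor p53, chosen by name with earlier results of these data known: Cdkn1a, Mdm2, Ccng1, Trp53inp1, Bax, Bbc3, Phlda3, Eda2r, Zmat3 and Sesn2. All 10 were found among the 47069 genes of the count table, and all 10 passed the filter on low counts. They were read in mRNA from intestinal organoids, which are crypt-like epithelial cultures grown in Matrigel with Noggin, EGF and R-spondin-1, at 50 days of culture. The organoids came from C57BL/6 mice with the genotype Lgr5-EGFP-CreERT2; Ppp2r1a flox/flox, so that every group, control included, carried both alleles. Tamoxifen activates the CreERT2 recombinase in cells that express the stem cell gene Lgr5, where it deletes the floxed part of Ppp2r1a, the scaffold subunit of the phosphatase PP2A. The 5 groups of 2 libraries each were control (saline), DMBA (7,12-dimethylbenz[a]anthracene, a carcinogen that forms DNA adducts), TAM short and TAM long (tamoxifen), and DMBA+TAM (both agents). The labels do not say what short and long mean, and DMBA is labelled long as well. They also do not say whether the libraries of a group came from separate cultures or animals, so the p-values measure the spread between these libraries, which may be technical.

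p53 is a transcription factor that is held at a low level by the ubiquitin ligase Mdm2 and is stabilised when DNA is damaged. It binds pairs of a short palindromic sequence, the half-site, near its target genes. Its targets stop the cell cycle, start cell death, repair damage and, through Mdm2 and others, limit p53 itself. In the intestinal crypt the pathway is known for the response of stem and progenitor cells to DNA damage.

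The sequences upstream of 6 of these genes are shown. They cover Eda2r, Phlda3 and Cdkn1a, which moved most in DMBA+TAM against control, and the members in which a half-site was found. The RefSeq promoter table (build GRCm38.p6) held windows of 300 bases, from 250 before to 50 after a start, for 8 of the 10 genes. Zmat3 and Trp53inp1 had no window, so no sequence is shown for them. The consensus p53 half-site, a decamer that reads the same on both strands and was therefore searched once for both, occurred without a mismatch in 8.36% of all 32851 windows. A pair of decamers, 0 to 13 bases apart with at most 1 mismatch in all, occurred in 0.627% of the windows. Among the 11 windows of the members 4 held a half-site and 2 held a pair. Each line gives the 250 bases before the start, 5′ to 3′ on the strand of the gene, and capitals mark the matches. The lines are Cdkn1a (chr17:29090729-29090978, plus strand), Ccng1 (chr11:40755287-40755536, minus strand), Mdm2 (chr10:117710759-117711008, minus strand), Bax (chr7:45466899-45467148, minus strand), Phlda3 (chr1:135765835-135766084, plus strand) and Eda2r (chrX:97377210-97377459, minus strand).
Cdkn1a: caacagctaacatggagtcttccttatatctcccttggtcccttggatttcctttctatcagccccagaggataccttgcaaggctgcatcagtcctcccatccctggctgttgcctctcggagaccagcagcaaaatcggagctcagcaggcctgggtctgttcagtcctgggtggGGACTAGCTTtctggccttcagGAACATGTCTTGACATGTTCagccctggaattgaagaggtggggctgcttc
Ccng1: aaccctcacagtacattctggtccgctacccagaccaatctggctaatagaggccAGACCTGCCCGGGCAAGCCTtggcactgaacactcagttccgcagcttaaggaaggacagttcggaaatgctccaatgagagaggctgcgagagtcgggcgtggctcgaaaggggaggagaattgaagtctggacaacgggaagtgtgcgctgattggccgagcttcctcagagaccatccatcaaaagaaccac
Mdm2: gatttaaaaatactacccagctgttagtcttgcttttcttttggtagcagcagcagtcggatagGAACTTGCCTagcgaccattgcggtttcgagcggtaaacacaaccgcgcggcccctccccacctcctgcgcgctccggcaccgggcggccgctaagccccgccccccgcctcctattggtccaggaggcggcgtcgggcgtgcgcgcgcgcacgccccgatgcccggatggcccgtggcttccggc
Bax: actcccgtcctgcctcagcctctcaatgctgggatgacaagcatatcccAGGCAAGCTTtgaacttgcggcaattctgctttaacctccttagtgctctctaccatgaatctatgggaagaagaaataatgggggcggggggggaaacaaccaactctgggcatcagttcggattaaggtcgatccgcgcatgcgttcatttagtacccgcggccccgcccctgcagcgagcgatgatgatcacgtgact
Phlda3: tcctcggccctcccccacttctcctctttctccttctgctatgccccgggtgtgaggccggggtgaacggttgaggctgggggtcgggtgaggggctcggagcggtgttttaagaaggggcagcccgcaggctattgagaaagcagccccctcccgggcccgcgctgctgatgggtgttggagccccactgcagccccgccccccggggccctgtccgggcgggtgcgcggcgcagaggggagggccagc
Eda2r: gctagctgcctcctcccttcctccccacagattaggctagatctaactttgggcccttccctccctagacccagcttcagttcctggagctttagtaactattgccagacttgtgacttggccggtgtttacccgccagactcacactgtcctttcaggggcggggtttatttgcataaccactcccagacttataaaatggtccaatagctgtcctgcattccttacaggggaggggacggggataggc
In Cdkn1a the decamers GGACTAGCTT and GAACATGTCT lay 73 to 64 and 51 to 42 bases before the start and formed a pair 12 bases apart with 0 mismatches. The second of them also began the adjoining pair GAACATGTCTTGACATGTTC, which had 1 mismatch. Cdkn1a has another RefSeq start 2790 bases downstream, whose window held no match. In Ccng1 the pair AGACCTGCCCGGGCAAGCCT lay 195 to 176 bases before the start with 1 mismatch. Mdm2 held the single decamer GAACTTGCCT and Bax the single decamer AGGCAAGCTT. No match was found in the windows of Phlda3, Eda2r, Bbc3 and Sesn2, which says only that the letters are not in these windows. A match is a description of the sequence, and no binding was measured.

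The libraries held 8828247 to 10923673 counts in 4 groups and 1592366 and 1915270 counts in DMBA+TAM, so that values of DMBA+TAM carry more counting error. Levels are given as normalised counts (CPM, counts scaled to a common library total with TMM factors). For 3 counts this value was 1.58 and 1.32 in the DMBA+TAM libraries and 0.259 to 0.379 elsewhere. The cell makeup of the libraries moved with the groups. The summed level of 8 epithelial markers was 12950 to 22350 CPM in the 8 other libraries and 22.03 to 32.73 CPM in DMBA+TAM, whereas 8 fibroblast markers summed to 639.5 to 2051 CPM in the 8 other libraries and to 31450 to 32440 CPM in DMBA+TAM. DMBA+TAM, labelled as intestinal organoid, was therefore nearly without the defining transcripts of epithelium. The 6 small-intestine markers summed to 26450 to 27050 CPM in control and 8470 to 11260 CPM in TAM short, but to 305.4 to 711.7 CPM in DMBA and 1011 to 1021 CPM in TAM long. The 6 colon markers ran the other way, with 231.7 to 357.6 CPM over control and TAM short and 4093 to 12530 CPM over DMBA and TAM long. The library names carry an S in control and TAM short and an L in DMBA and TAM long, and their meaning is not given in the labels. The titles of control and DMBA also share an N, those of both tamoxifen groups begin with DSS, and those of DMBA+TAM hold Lgr5. The groups here follow the descriptions, which call the DSS libraries dosage-sensitive TAM. The paper of the study uses DSS for dextran sulfate sodium. DMBA and TAM long cannot be told apart from the difference between S and L when they are compared with control or TAM short. In bulk RNA, fewer cells of a type and less RNA per cell cannot be told apart either. Ppp2r1a was counted at 123 and 129 CPM in control, 131 and 147 CPM in TAM short, 169 and 157 CPM in TAM long, 167 and 153 CPM in DMBA and 129 and 133 CPM in DMBA+TAM. These counts cover the whole gene, including exons outside the deleted part, and therefore do not check the deletion.

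**Figure D1:**
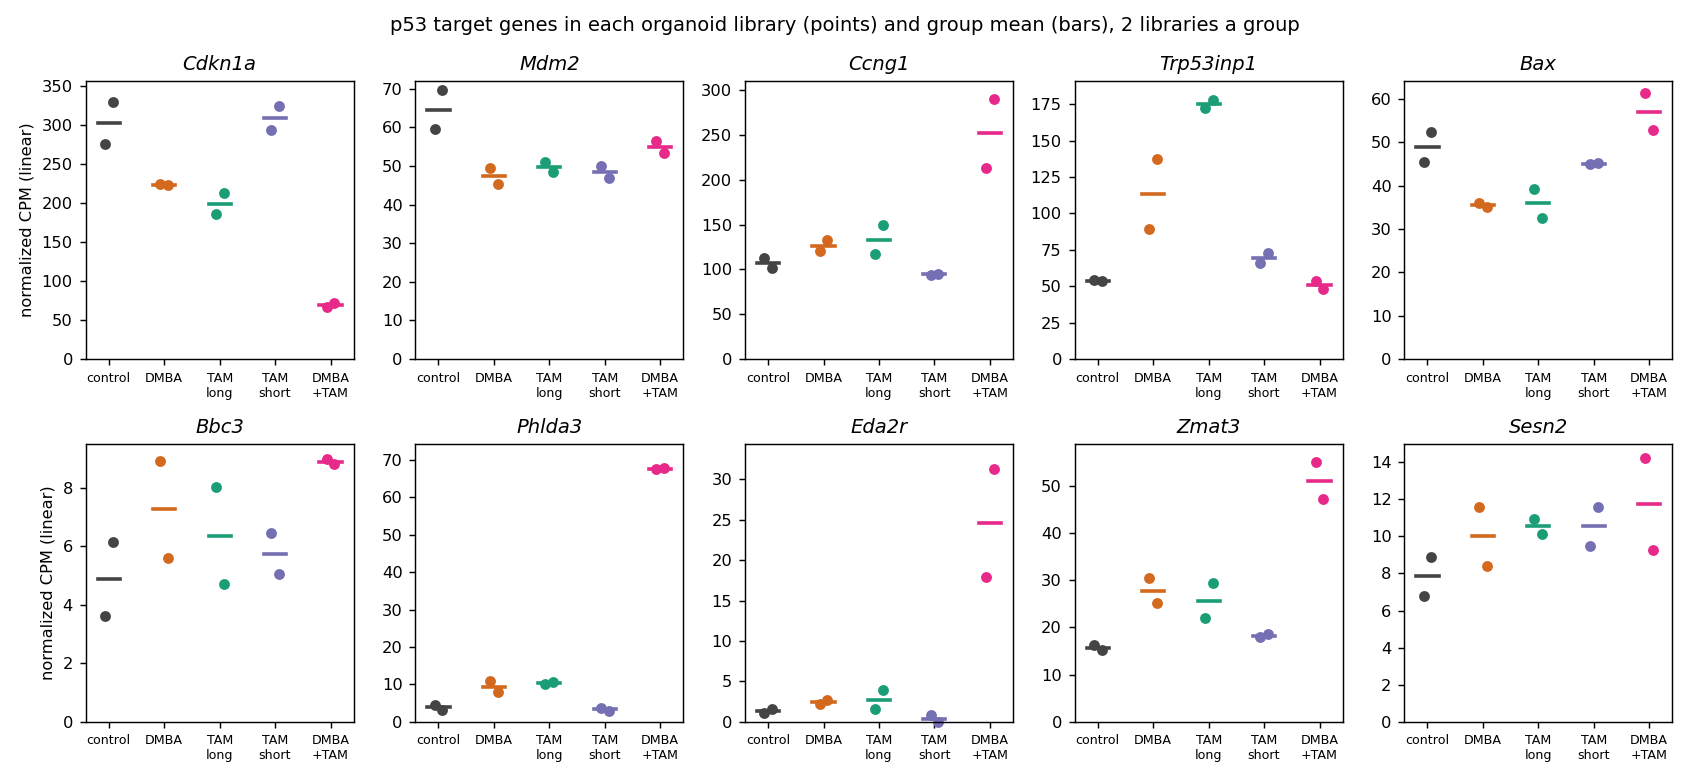
Level of each of the 10 p53 target genes in normalised counts (CPM, linear axis from 0). Each point is 1 library and each bar the mean of the 2 libraries of a group. Cdkn1a lies lowest in DMBA+TAM, at 66.5 and 72.3 CPM, while Phlda3, Eda2r, Zmat3 and Ccng1 lie highest there.

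Cdkn1a (ENSMUSG00000023067, chr17:29090979-29100722, plus strand) encodes p21, the cyclin-dependent kinase inhibitor through which p53 stops the cell cycle. It was counted at 276 and 329.9 CPM in control, 224 and 223 CPM in DMBA, 294 and 324 CPM in TAM short, 186 and 212 CPM in TAM long, and 66.5 and 72.3 CPM in DMBA+TAM. Both DMBA+TAM libraries lay below all 8 others. TAM short and control overlapped, and each further step down to DMBA, TAM long and DMBA+TAM was without overlap. In DMBA+TAM Cdkn1a fell 4.36-fold against control (log2 fold change -2.12, SE 0.14, edgeR adjusted p = 7.18e-07), 3.22-fold against DMBA (log2 fold change -1.69, SE 0.14, edgeR adjusted p = 5.08e-06), and by 1.52 and 2.15 on the log2 scale against TAM long and TAM short. The falls in the single treatments were smaller. Against control, Cdkn1a differed by log2 -0.44 in DMBA (SE 0.13, edgeR adjusted p = 0.0194) and by -0.60 in TAM long (SE 0.13, edgeR adjusted p = 0.00416), and with scaling by library size alone these were -0.13 and -0.28 and did not pass the threshold. The fall in DMBA was also lost with only the groups compared in the fit (edgeR adjusted p = 0.053) and after thinning. Cdkn1a shares its locus with the annotated gene AC167363.2, and whether the counting used strand is not given in the sources used here.

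Ccng1 (ENSMUSG00000020326, chr11:40748552-40755311, minus strand) encodes cyclin G1, which recruits the phosphatase PP2A to Mdm2. Its level was 113 and 102 CPM in control, 121 and 133 CPM in DMBA, 94.0 and 95.02 CPM in TAM short, 117 and 150.1 CPM in TAM long, and 213 and 291 CPM in DMBA+TAM. Both DMBA+TAM libraries were above all others, although they differed from each other more than those of any other group. Ccng1 rose 2.35-fold against control (log2 fold change 1.23, SE 0.17, edgeR adjusted p = 0.000132) and 1.99-fold against DMBA (log2 fold change 0.99, SE 0.17, edgeR adjusted p = 0.000753). It rose by log2 0.50 in TAM long against TAM short (SE 0.17, edgeR adjusted p = 0.0374), a call that was lost without TAM long replicate 2, where the value was 0.29, and without either TAM short library. Against control the differences in DMBA (0.24) and TAM long (0.31) did not pass, and with library size alone they were 0.54 and 0.63 and passed. Cdkn1a and Ccng1, the members with a pair of decamers upstream of the start, thus differed in opposite directions from control in DMBA+TAM.

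Mdm2 (ENSMUSG00000020184, chr10:117688888-117710758, minus strand), which encodes the ubiquitin ligase that degrades p53 and closes the feedback loop, had the narrowest range among the 10 genes, with a ratio of 1.36 between the highest and lowest group means. Its level was 59.6 and 69.6 CPM in control, 49.4 and 45.4 CPM in DMBA, 50.1 and 46.9 CPM in TAM short, 51.1 and 48.4 CPM in TAM long, and 56.5 and 53.3 CPM in DMBA+TAM. Control was above every treated library. The fall against control passed in DMBA (log2 fold change -0.45, SE 0.12, edgeR adjusted p = 0.0117), in TAM long (-0.38, SE 0.12, edgeR adjusted p = 0.0261) and in TAM short (-0.41, SE 0.12, edgeR adjusted p = 0.0462), and none of these passed with scaling by library size alone or with libraries thinned to the smallest total, and the fall in TAM long was also lost with no filter on low counts (edgeR adjusted p = 0.0673). In DMBA+TAM the difference from control was -0.24 (SE 0.13, edgeR adjusted p = 0.129), and it was 0.26 with library size alone, so no direction is given for it. Trp53, which encodes p53, was at 28.8 and 25.7 CPM in control, 25.5 and 22.4 CPM in DMBA, 25.4 and 28.3 CPM in TAM short, 21.6 and 16.6 CPM in TAM long, and 30.6 and 28.2 CPM in DMBA+TAM. Only in TAM long did Trp53 differ from control past the threshold (log2 fold change -0.51, edgeR adjusted p = 0.0293), whereas in DMBA+TAM the difference was 0.11 (edgeR adjusted p = 0.624). Mdm4, the partner of Mdm2 that blocks p53, was at 80.9 ± 0.841 CPM in control (SD, n = 2) and rose in TAM long to 103 ± 3.72 CPM (SD, n = 2; log2 fold change 0.34, edgeR adjusted p = 0.022).

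Trp53inp1 (ENSMUSG00000028211, chr4:11156431-11174379, plus strand) encodes a stress protein that promotes p53 phosphorylation and cell death. It was read at 54.4 and 53.5 CPM in control, 89.1 and 137 CPM in DMBA, 66.2 and 73.1 CPM in TAM short, 172 and 178 CPM in TAM long, and 53.8 and 48.0 CPM in DMBA+TAM. The levels of TAM long, DMBA, TAM short and control did not overlap in that order, and DMBA+TAM overlapped with control. It was the member that rose most in TAM long against control, 3.25-fold (log2 fold change 1.70, SE 0.18, edgeR adjusted p = 6.52e-05), and it rose 2.10-fold in DMBA (1.07, SE 0.18, edgeR adjusted p = 0.000991). Against TAM short it rose by log2 1.33 in TAM long (SE 0.18, edgeR adjusted p = 0.000356). In DMBA+TAM it was lower than in DMBA by 1.15 and lower than in TAM long by 1.78 on the log2 scale (SE 0.19 for both, edgeR adjusted p = 0.000649 and 3.26e-05). Against control its difference in DMBA+TAM was -0.08 (SE 0.19, edgeR adjusted p = 0.724), and 0.41 with library size alone, where it passed (edgeR adjusted p = 0.0481).

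Zmat3 (ENSMUSG00000027663, chr3:32334792-32366014, minus strand) encodes an RNA-binding protein that acts on splicing and mRNA stability. Its level was 16.2 and 15.2 CPM in control, 30.4 and 25.0 CPM in DMBA, 18.0 and 18.5 CPM in TAM short, 21.9 and 29.4 CPM in TAM long, and 54.9 and 47.1 CPM in DMBA+TAM. Every treated library was above both control libraries, and DMBA+TAM was above all others. Zmat3 rose against control in DMBA (log2 fold change 0.82, SE 0.18, edgeR adjusted p = 0.00403), in TAM long (0.71, SE 0.18, edgeR adjusted p = 0.0091) and in DMBA+TAM (1.70, SE 0.19, edgeR adjusted p = 2.64e-05), but in TAM short the difference was 0.22 (SE 0.18, edgeR adjusted p = 0.475). The rise in TAM long was 0.48 without TAM long replicate 2 and 0.65 without control replicate 2 and did not pass in either.

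Bax (ENSMUSG00000003873, chr7:45461695-45466898, minus strand) and Bbc3 (ENSMUSG00000002083, chr7:16309616-16318205, plus strand) encode Bax, which permeabilises the mitochondrial membrane, and Puma, a BH3-only protein that activates it. Bax was counted at 45.5 and 52.3 CPM in control, 35.9 and 35.0 CPM in DMBA, 44.9 and 45.3 CPM in TAM short, 39.2 and 32.6 CPM in TAM long, and 61.2 and 52.9 CPM in DMBA+TAM. It was lower than control in DMBA (log2 fold change -0.46, SE 0.13, edgeR adjusted p = 0.018) and TAM long (-0.44, SE 0.13, edgeR adjusted p = 0.0218), and with library size alone these were -0.15 and -0.12 and did not pass. Against DMBA it rose by 0.68 in DMBA+TAM (SE 0.14, edgeR adjusted p = 0.00261) and against TAM long by 0.66 (SE 0.14, edgeR adjusted p = 0.00293). The protein-coding gene Gm45808 overlaps Bax in the annotation, and how many reads this touched was not measured. Bbc3 was a low gene, with 17 to 100 counts in a library. Its level was 3.62 and 6.14 CPM in control, 8.93 and 5.62 CPM in DMBA, 6.44 and 5.05 CPM in TAM short, 8.02 and 4.72 CPM in TAM long, and 8.97 and 8.81 CPM in DMBA+TAM. Groups next to each other in mean level overlapped throughout. DMBA+TAM overlapped with DMBA but lay above both libraries of control, TAM short and TAM long. Bbc3 passed in 0 of the 8 comparisons in the edgeR fit over all 10 libraries, 0 also at an unadjusted p under 0.05. The largest difference was 0.87 in DMBA+TAM against control (SE 0.42, edgeR adjusted p = 0.0978), and it passed with library size alone (1.36) and with only the groups compared (0.96, edgeR adjusted p = 0.0477).

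Phlda3 (ENSMUSG00000041801, chr1:135766119-135769136, plus strand) encodes a PH-domain protein that competes with the kinase Akt for membrane lipids and so limits Akt activity. It had 128 and 154 counts in DMBA+TAM, the smallest libraries, beside 39 and 27 (control), 33 and 23 (TAM short), 121 and 70 (DMBA) and 116 and 108 (TAM long). After scaling this was 4.41 and 3.25 CPM in control, 10.8 and 7.86 CPM in DMBA, 3.73 and 2.90 CPM in TAM short, 10.01 and 10.6 CPM in TAM long, and 67.6 and 67.8 CPM in DMBA+TAM. The DMBA+TAM libraries were far above the rest, DMBA and TAM long formed an overlapping middle, and control and TAM short overlapped at the bottom. Phlda3 rose 17.6-fold in DMBA+TAM against control (log2 fold change 4.13, SE 0.23, edgeR adjusted p = 2.5e-07) and 7.21-fold against DMBA (2.85, SE 0.21, edgeR adjusted p = 2.48e-06). It also rose 2.44-fold in DMBA (1.28, SE 0.23, edgeR adjusted p = 0.00146) and 2.68-fold in TAM long (1.42, SE 0.23, edgeR adjusted p = 0.000809), while in TAM short the difference was -0.21 (SE 0.26, edgeR adjusted p = 0.659).

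Eda2r (ENSMUSG00000034457, chrX:97333840-97377216, minus strand) encodes the receptor of ectodysplasin A2, a member of the TNF receptor family. It was nearly silent outside DMBA+TAM, with 10 and 13 counts in control, 25 and 24 in DMBA, 7 and 0 in TAM short and 18 and 40 in TAM long, against 34 and 71 counts in the smaller DMBA+TAM libraries. After scaling this was 1.13 and 1.57 CPM in control, 2.23 and 2.70 CPM in DMBA, 0.791 and 0 CPM in TAM short, 1.55 and 3.93 CPM in TAM long, and 17.9 and 31.3 CPM in DMBA+TAM. DMBA+TAM was above all other libraries. Eda2r rose 18.2-fold against control (log2 fold change 4.19, SE 0.66, edgeR adjusted p = 0.000325), and it rose by log2 3.33 against DMBA (SE 0.61, edgeR adjusted p = 0.00121). In TAM long against TAM short the difference was 2.67 (SE 0.82, edgeR adjusted p = 0.0264). Without TAM short replicate 2, the library at 0, it was 1.75 and did not pass (edgeR adjusted p = 0.121), and without TAM long replicate 2 it was 1.86 and did not pass either.

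Sesn2 (ENSMUSG00000028893, chr4:132492032-132510501, minus strand) encodes Sestrin 2, a stress protein that restrains mTORC1 when leucine is scarce. Its level was 6.78 and 8.91 CPM in control, 11.6 and 8.42 CPM in DMBA, 9.49 and 11.6 CPM in TAM short, 10.95 and 10.1 CPM in TAM long, and 14.3 and 9.25 CPM in DMBA+TAM. Groups next to each other in mean level overlapped, but control lay below both libraries of TAM short, TAM long and DMBA+TAM. Sesn2 passed in 0 of the 8 comparisons in the edgeR fit over all 10 libraries, 0 also at an unadjusted p under 0.05. In DMBA+TAM the difference from control was 0.57 (SE 0.30, edgeR adjusted p = 0.12), and with library size alone it was 1.06 and passed. The gene Gm12981 overlaps Sesn2.

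Per length, the members spanned a wide range of levels. By the authors' FPKM, a value per length and library total, Cdkn1a led in control at 218 ± 22.4 FPKM (SD, n = 2), above Bax at 47.5 ± 3.55, Ccng1 at 42.1 ± 4.01 and Mdm2 at 32.4 ± 2.78 FPKM (SD, n = 2 each). At the other end were Zmat3 at 2.69 ± 0.185, Sesn2 at 1.90 ± 0.320 and Eda2r at 0.499 ± 0.102 FPKM (SD, n = 2 each). In DMBA+TAM the order on the same scale changed. Ccng1 led at 139 ± 29.8 FPKM, followed by Phlda3 at 80.2 ± 0.0162, Bax at 78.0 ± 8.29 and Cdkn1a at 70.3 ± 3.92 FPKM (SD, n = 2 each), and the last 3 lay close together. FPKM carries no TMM factor, and the gene lengths behind it are the authors' own.

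**Figure D2:**
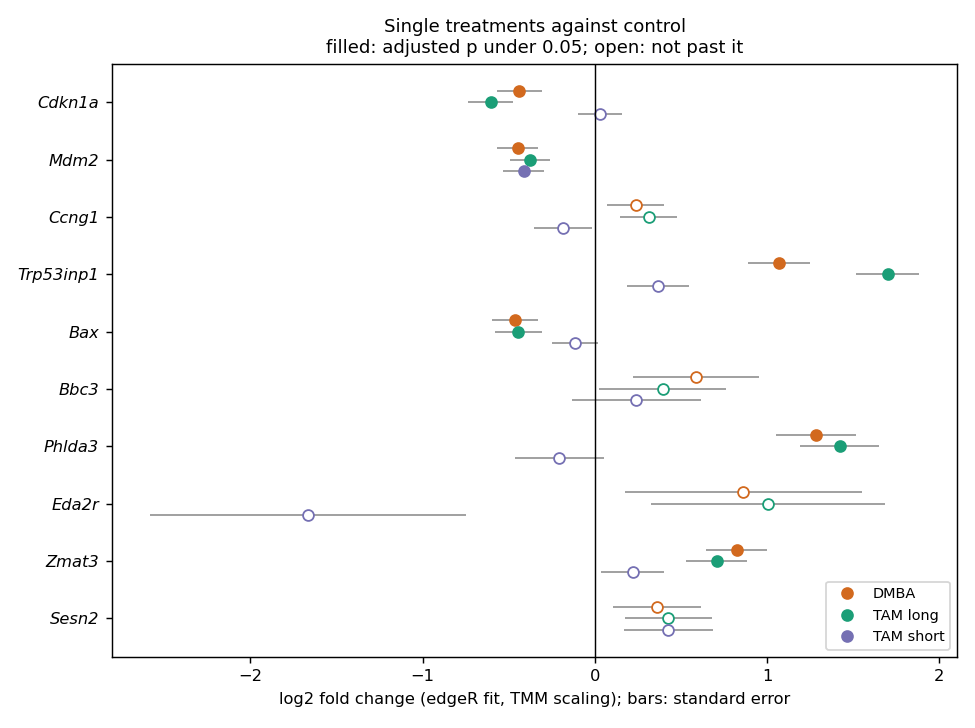
Log2 fold changes of the 10 genes against control after DMBA, tamoxifen (long) and tamoxifen (short) (points, edgeR fit; bars are standard errors; filled points have an adjusted p under 0.05). The 3 contrasts share the control libraries. Trp53inp1, Phlda3 and Zmat3 are filled on the right and Cdkn1a, Mdm2 and Bax on the left in DMBA and TAM long, and only Mdm2 is filled in TAM short.

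Which members the single agents moved was asked by comparing each with control. In DMBA 6 of 10 members passed an adjusted p of 0.05 (edgeR quasi-likelihood test, Benjamini-Hochberg adjustment over 16179 genes), against 47.8% of all genes tested, so that the share of members called was near the background. The 3 that rose were Trp53inp1, Phlda3 and Zmat3 (24.5% of all genes rose) and the 3 that fell were Cdkn1a, Mdm2 and Bax (23.3% fell). The median log2 fold change of all 10 members was 0.47, and that of all genes was 0.07. In TAM long the same 6 members passed in the same directions, against 46.0% of all genes (23.2% higher, 22.8% lower), with a median of 0.41 beside 0.05 over all genes. The 35 other textbook p53 targets tested had medians of 0.07 in DMBA and 0.05 in TAM long. Both contrasts use the same control libraries and both set L libraries against S libraries, so they are not independent of each other. In both, 6 of 6 small-intestine markers were lower than in control, and 5 of 5 smooth muscle markers were higher, with sums of 1579 to 1875 CPM in control, 5935 to 10420 CPM in DMBA and 7026 to 10690 CPM in TAM long. Of 8 fibroblast markers 7 were higher in DMBA, and 4 were higher and 1 was lower in TAM long. Of 8 epithelial markers 4 were lower and 2 were higher in each. The part of these markers in the members' differences was not tested.

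The split into rises and falls depended on the scaling and on thinning. Thinning was done with a single random draw and lowers the depth, so lost depth and the noise of the draw cannot be told apart. After thinning every library to the smallest total, the 3 rises in DMBA kept their calls and the falls of Cdkn1a, Mdm2 and Bax lost theirs (edgeR adjusted p = 0.108, 0.637 and 0.346), and in TAM long Trp53inp1 and Phlda3 remained higher and Cdkn1a lower. With library size alone the median of all genes moved up by 0.31 in DMBA and by 0.32 in TAM long, and the 4 members past the threshold in DMBA were all higher (Ccng1 added, Cdkn1a, Mdm2 and Bax no longer past), as were the 5 in TAM long (Ccng1 and Sesn2 added). Over all genes the same change of scaling moved the calls in DMBA from 3961 higher and 3774 lower to 5587 higher and 2257 lower. Without control replicate 2, 3 members passed in DMBA (Cdkn1a, Mdm2 and Bax lost) and 3 in TAM long (Mdm2, Bax and Zmat3 lost). Mdm2 and Bax also lost their calls in DMBA without DMBA replicate 2 (-0.40 and -0.45). In TAM long 3 members passed without TAM long replicate 2 (Mdm2, Bax and Zmat3 lost), and Mdm2 was lost without TAM long replicate 1 (-0.42).

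**Figure D3:**
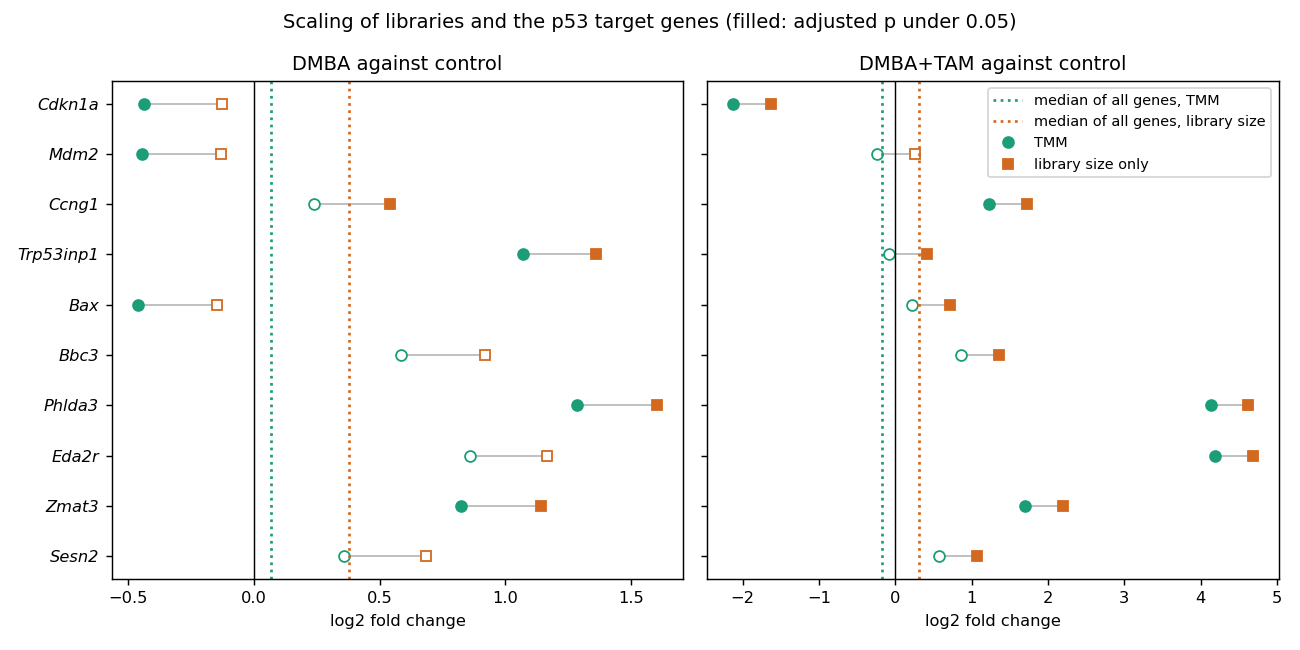
Log2 fold changes of the 10 genes under TMM scaling (circles) and library size alone (squares), in DMBA and in DMBA+TAM against control; filled marks have an adjusted p under 0.05 and dotted lines are the median of all genes tested under each scaling. Every gene moves right by about the shift of the median, 0.31 in DMBA and 0.48 in DMBA+TAM, and the falls of Cdkn1a, Mdm2 and Bax in DMBA lose their fill.

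Within the S libraries, TAM short was compared with control, and 3 of 6 small-intestine markers were lower in TAM short. In TAM short 1 of 10 members passed, Mdm2, which was lower, against 14.3% of all genes (6.52% higher, 7.80% lower). No member was higher past the threshold in the edgeR fit over all 10 libraries, 0 also at an unadjusted p under 0.05, and with DESeq2 0 members passed. With only the 4 libraries compared in the edgeR fit, Trp53inp1 was higher (0.42, adjusted p = 0.00882) beside Mdm2 lower. The Mdm2 call was lost without any 1 of the 4 libraries, where its value ran from -0.52 to -0.30, and with no filter on low counts, where Eda2r was the 1 member called (-1.66, edgeR adjusted p = 0.0407). The median over the members was -0.04 and over all genes -0.04. TAM long against TAM short asked whether the tamoxifen-labelled groups differed. Here 6 members passed, against 42.2% of all genes: Ccng1, Trp53inp1, Phlda3, Eda2r and Zmat3 were higher (22.0% of all genes) and Cdkn1a was lower (20.3%). The median was 0.32 over the members, 0.05 over all genes and 0.18 over the 35 other textbook p53 targets tested. Again the comparison sets L against S libraries, with 5 of 6 small-intestine markers lower and 5 of 6 colon markers higher in TAM long. In this contrast 8 of 8 fibroblast, 5 of 5 smooth muscle and 3 of 4 endothelial markers were higher too. Of 8 epithelial markers 4 were lower and 1 was higher, and 13 of 14 G2 and M phase genes were lower. The part of these genes in the members' differences was not tested. Without TAM short replicate 2 or without TAM long replicate 2 the count was 3 (Ccng1, Eda2r and Zmat3 lost), and Ccng1 and Zmat3 were also lost without TAM short replicate 1 (0.48 and 0.46). The Zmat3 call was lost as well with DESeq2 (adjusted p = 0.0799), and in edgeR with no filter (adjusted p = 0.07), the replicate block (adjusted p = 0.0591) and thinning (adjusted p = 0.303).

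**Figure D4:**
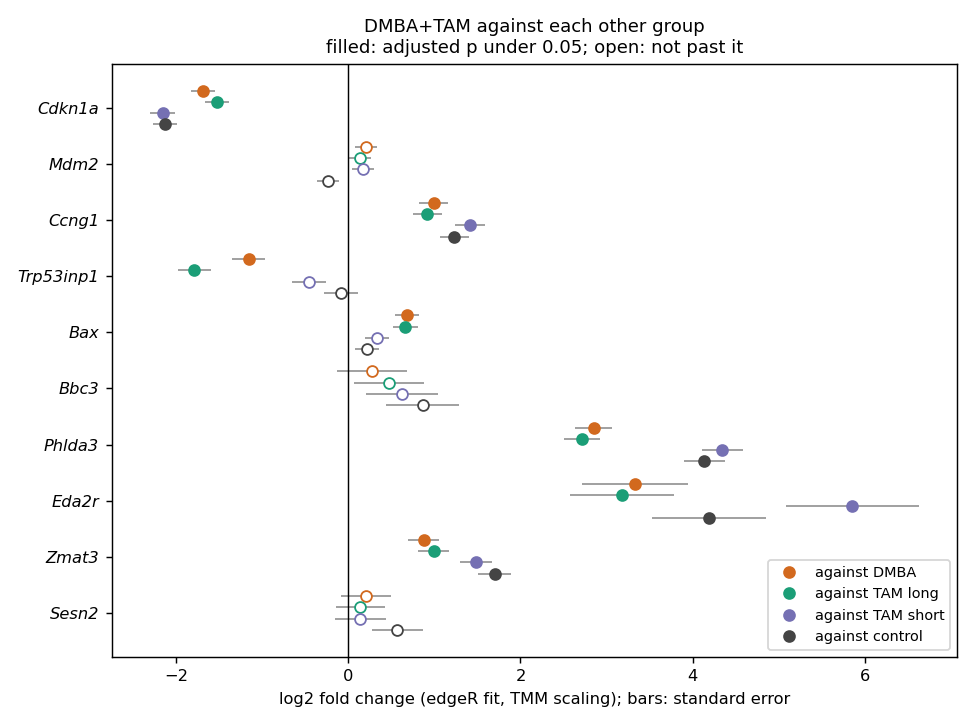
Log2 fold changes of the 10 genes in DMBA+TAM against each of the 4 other groups (points, edgeR fit; bars are standard errors; filled points have an adjusted p under 0.05). Phlda3, Eda2r, Zmat3 and Ccng1 are filled on the right and Cdkn1a on the left in all 4 contrasts, which share the DMBA+TAM libraries.

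In DMBA+TAM, Phlda3 and Eda2r were above every other group, followed by Zmat3 and Ccng1, and Cdkn1a was below every other group. Against control 5 of 10 passed, beside 64.3% of all genes: Ccng1, Phlda3, Eda2r and Zmat3 rose (29.0% of all genes) and Cdkn1a fell (35.3%). The median log2 fold change of all 10 members was 0.72, whereas that of all genes was -0.17. The 35 other textbook p53 targets tested had a median of -0.55. The members were chosen with earlier results of these data known, so the medians of the members describe them and test nothing. Against DMBA 7 passed, with Bax added among the higher and Trp53inp1 among the lower, beside 55.1% of all genes (25.2% higher, 29.9% lower), and Mdm2 was also higher with library size alone (0.39). Against TAM long the same 7 members passed, beside 55.2% (25.3% higher, 29.9% lower), and against TAM short the same 5 as against control, beside 63.1% (29.3% higher, 33.8% lower). Against TAM short other members passed under other settings: Mdm2 and Bax were higher with library size alone (0.58 and 0.74), Bax was higher and Trp53inp1 lower with only the groups compared (0.40 and -0.39), and Trp53inp1 was lower with no filter (-0.53). Higher than each of the 4 other groups were 4 members, Ccng1, Eda2r, Phlda3 and Zmat3, beside 18.4% of all genes, and 1 member, Cdkn1a, was lower than each, beside 19.5%. These 5 genes kept their calls under library size alone, no filter, the replicate block, thinning to the smallest library and DESeq2, and Bax joined the higher genes under library size alone. Both DMBA+TAM libraries lay above all 8 others for 5 members (those 4 and Bax), beside 24.7% of all genes, and below all 8 for Cdkn1a, beside 29.9%. With library size alone 9 members passed against control, 8 higher and 1 lower, where the median of all genes moved up by 0.48 and 6254 of the 16179 genes were higher and 3755 lower, in place of 4687 higher and 5709 lower. The 8 epithelial markers were all lower and the 8 fibroblast markers all higher in DMBA+TAM than in control, with sums of 18640 to 19420 CPM against 22.03 to 32.73 CPM and of 1108 to 1277 CPM against 31450 to 32440 CPM. Endothelial markers summed to 500.5 to 501.5 CPM against 48.7 to 92.6 CPM elsewhere, and the 5 immune markers to 3279 to 3286 CPM against 88.3 to 271 CPM. Of that sum Lyz2, a marker of myeloid cells, made up 2942 CPM, whereas Cd3e was at 0 and the B cell marker Cd79a was at 0.705 CPM in DMBA+TAM and 6.32 CPM in control. The 5 smooth muscle markers summed to 862 to 1156 CPM, with 5 of 5 lower than in DMBA and in TAM long. Against control 3 of 5 were lower and 1, Acta2, was higher (log2 fold change 1.29, edgeR adjusted p = 0.00257). Fat cell markers summed to 493 to 952 CPM against 6.68 to 157 CPM elsewhere. The 4 skeletal muscle markers summed to 2.64 CPM in 1 DMBA+TAM library and to 6028 CPM in the other. The part of these cell types in the members' differences was not tested.

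Whether the change that goes with tamoxifen differed in the presence of DMBA was asked with an interaction term, chosen after the data were seen: DMBA+TAM against DMBA, minus TAM long against control. It passed for 6 of 10 members, against 48.2% of all genes. Trp53inp1 had the largest term at -2.85 (SE 0.26, edgeR adjusted p = 1.57e-05), since it was higher in TAM long than in control and lower in DMBA+TAM than in DMBA. Phlda3 was at 1.43 (SE 0.31, edgeR adjusted p = 0.00397), but at 0.79 after thinning (edgeR adjusted p = 0.316). Bax was at 1.13 (SE 0.20, edgeR adjusted p = 0.00104) and Cdkn1a was at -1.08 (SE 0.19, edgeR adjusted p = 0.00107). The terms of Ccng1 (0.68) and Mdm2 (0.59) passed as well, but both were lost under library size alone, and both in several fits without 1 library. Mdm2 was also lost with no filter and after thinning, and Ccng1 with only the groups compared. The term of Eda2r was 2.32 and did not pass (edgeR adjusted p = 0.0628), but it passed with DESeq2 (2.39, adjusted p = 0.013), and in edgeR with no filter (adjusted p = 0.000716), with only the groups compared (adjusted p = 0.0286) and without TAM long replicate 2 (adjusted p = 0.0405). Since control carries S and TAM long carries L, this term also contains the difference between S and L libraries, and the loss of epithelial transcripts in DMBA+TAM.

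**Figure D5:**
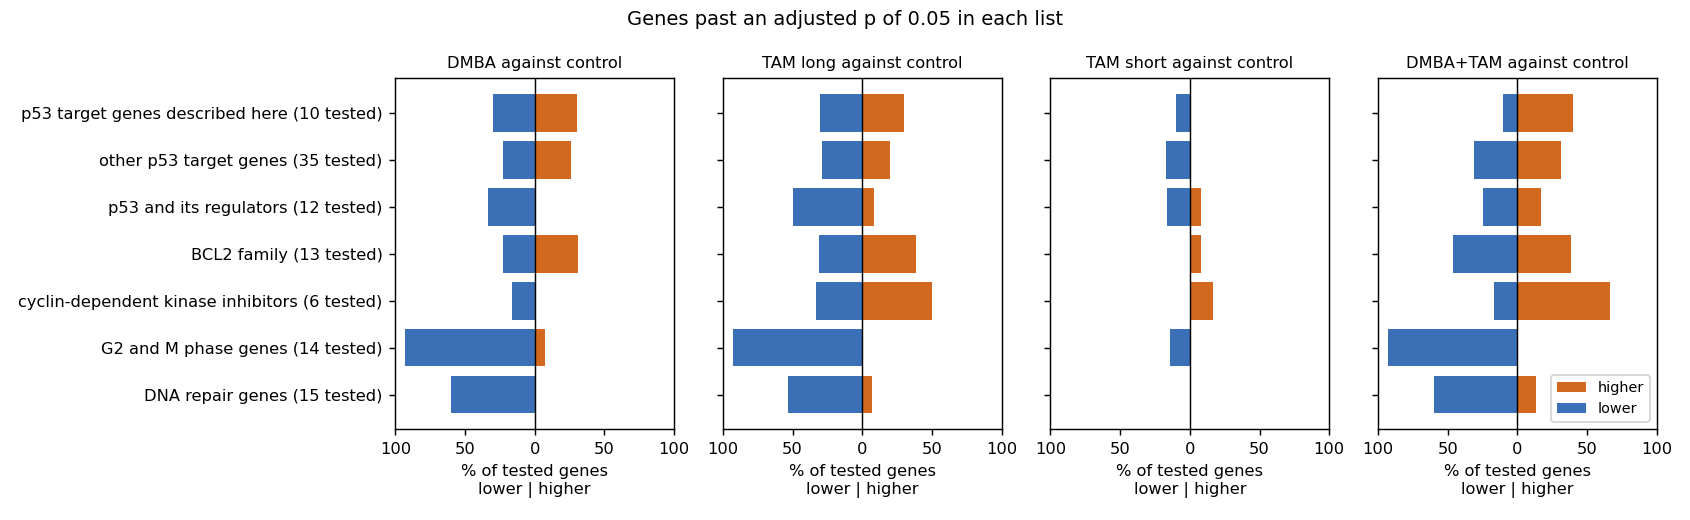
Percentage of the tested genes of each list that passed an adjusted p of 0.05, lower (left) and higher (right), in the 4 contrasts against control. The 14 G2 and M phase genes lie almost wholly on the left in DMBA, TAM long and DMBA+TAM, while the p53 target genes, described here and other, lie on both sides.

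Other textbook p53 targets were called in both directions, at shares near those of all genes except in TAM short. Against control, 11 of the 35 tested rose and 11 fell in DMBA+TAM (29.0% and 35.3% of all genes), 9 rose and 8 fell in DMBA (24.5% and 23.3%), 7 rose and 10 fell in TAM long (23.2% and 22.8%), and 6 fell in TAM short (7.80%). The values of these other genes are under TMM scaling. Their median log2 fold change in DMBA+TAM was -0.55. The autophagy regulator Dram1 rose there from 3.66 ± 0.579 to 144 ± 15.0 CPM (SD, n = 2 each). The largest fall was that of Perp, a desmosomal membrane protein of epithelia, from 259 ± 15.5 to 0.881 ± 1.25 CPM (SD, n = 2 each). In DMBA and TAM long the largest fall was that of Sesn1, the paralog of Sesn2, at 220 ± 5.54 CPM in control, 21.4 ± 1.98 CPM in DMBA and 31.8 ± 10.8 CPM in TAM long (SD, n = 2 each), followed by Pmaip1, which encodes the BH3-only protein Noxa (log2 fold change -2.53 in DMBA, edgeR adjusted p = 4.61e-05). Among 12 tested genes of p53 and its regulators, 4 fell in DMBA, 6 fell and 1 rose in TAM long, and 3 fell and 2 rose in DMBA+TAM. Hipk2, a kinase that phosphorylates p53, was at 72.8 ± 2.51 CPM in control (SD, n = 2) and was lower in all 4 treated groups, with log2 fold changes of -0.96 in DMBA+TAM, -1.41 in DMBA, -1.65 in TAM short and -1.73 in TAM long.

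Families around the members gave the following counts against control, to be read beside the shares of all genes that rose and fell, 24.5% and 23.3% in DMBA, 23.2% and 22.8% in TAM long, and 29.0% and 35.3% in DMBA+TAM. Of 13 genes of the BCL2 family, which contains the partners of Bax and Bbc3, 4 rose and 3 fell in DMBA, 5 rose and 4 fell in TAM long, and 5 rose and 6 fell in DMBA+TAM. The Bax relative Bok rose in all 4 contrasts, from 5.27 ± 0.895 CPM in control to 18.2 ± 2.83 in DMBA, 10.3 ± 0.385 in TAM short, 23.1 ± 1.02 in TAM long and 40.0 ± 1.35 CPM in DMBA+TAM (SD, n = 2 each). The other Bax relative, Bak1, fell from 177 ± 11.4 CPM in control to 96.4 ± 22.0 in DMBA, 76.7 ± 5.601 in TAM long and 35.8 ± 3.59 CPM in DMBA+TAM, and was at 199 ± 4.72 CPM in TAM short, where it did not pass (SD, n = 2 each). Of 6 cyclin-dependent kinase inhibitors other than Cdkn1a, 4 rose and 1, Cdkn2b, fell in DMBA+TAM, 3 rose and 2 fell in TAM long, and 1 fell in DMBA. Of 14 G2 and M phase genes, which p53 can lower through p21, 13 fell in DMBA+TAM, in DMBA and in TAM long alike, 2 fell in TAM short, and 1, Plk1, rose in DMBA. Cdkn1a, which encodes p21, had log2 fold changes of -2.12 in DMBA+TAM, -0.44 in DMBA and -0.60 in TAM long under TMM scaling. The part of p53, p21 or cell makeup in the falls of these genes was not tested. Of 15 DNA repair genes 9 fell in DMBA+TAM, 9 in DMBA and 8 in TAM long, and 2 rose in DMBA+TAM and 1 in TAM long.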

How the data were processed

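Poly-A mRNA was sequenced from 10 libraries, 2 in each of 5 groups taken from the sample labels. The authors aligned reads with TopHat v2.0.12 and made the deposited counts with HTSeq v0.6.1, and they also deposited FPKM, computed from gene length and library total. The submitters' processing notes name GRCm38.p6. The strand setting is not given in the sources used here. Raw counts were tested with edgeR 4.0.16 (filterByExpr, TMM, quasi-likelihood test, 1 mean per group over all 10 libraries) and adjusted by Benjamini-Hochberg over 16179 genes. SE was the log2 fold change divided by the square root of F. FPKM was used for levels between genes and not tested. With 2 libraries against 2, an exact permutation test cannot go below 0.333, so none was run. Of 47074 lines, 5 were broken lines without counts and were left out.

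The members and all gene lists were chosen with earlier results of these data known. All 10 members are named, and from other lists at most 3 rises and 3 falls with a mean of at least 50 counts. Trp53cor1 was not matched. The fit was tested on simulated counts for DMBA+TAM against control: with 16179 genes, of which 200 were changed 4-fold, 191 changed genes were tested and 139 recovered, with 8 false among 147 calls. In the data 64.3% of all genes passed in that contrast. The simulation therefore does not cover so broad a change, or what it does to the scaling and to false calls. Alternatives were library size alone, DESeq2 1.42.0, no filter, only the groups compared, a replicate block, thinning by a single random draw, a fold threshold and leaving out each library. Precision is limited by the 1592366 and 1915270 counts of DMBA+TAM. Replicates of every group differed by more than sampling noise (chi-square per degree of freedom 5.65 to 67.3), and each library was counted as 1 replicate.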

Additional observations from a re-analysis of the deposited data

Results flagged for a closer look

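The tamoxifen-labelled groups differed from each other by a test of the difference itself (edgeR, adjusted over all genes) for 6 members. In TAM long against TAM short the log2 differences were -0.63 for Cdkn1a, 0.50 for Ccng1, 1.33 for Trp53inp1, 1.63 for Phlda3, 2.67 for Eda2r and 0.49 for Zmat3. The same contrast passed for 42.2% of all genes, and without TAM short replicate 2 or TAM long replicate 2 the calls of Ccng1, Eda2r and Zmat3 were lost, which left 3 members. Ccng1 and Zmat3 were also lost without TAM short replicate 1, and Zmat3 with DESeq2, no filter, thinning and the replicate block. The markers of small intestine and colon moved with the same groups. In TAM long 8 of 8 fibroblast, 5 of 5 smooth muscle and 3 of 4 endothelial markers were also higher, and 13 of 14 G2 and M phase genes were lower. The part of all these genes was not tested.

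The change that goes with tamoxifen differed with DMBA by the interaction term for 6 members, at -1.08 for Cdkn1a, 0.59 for Mdm2, 0.68 for Ccng1, -2.85 for Trp53inp1, 1.13 for Bax and 1.43 for Phlda3. It passed for 48.2% of all genes, and Mdm2 and Ccng1 were lost with library size alone (0.45 and 0.55) and in fits without 1 library. For Mdm2 these were the fits without control replicate 2, DMBA replicate 2, TAM long replicate 2 or DMBA+TAM replicate 1, and for Ccng1 those without either control library, DMBA replicate 1, TAM long replicate 1 or DMBA+TAM replicate 2. Mdm2 was also lost with no filter and after thinning (0.18), and Ccng1 with only the groups compared. The term contains the difference between S and L libraries, and in it 8 of 8 epithelial markers were lower and 8 of 8 fibroblast markers higher. Their part was not tested. The term was chosen after the data were seen. With libraries thinned to the smallest total, the Phlda3 term was 0.79 and did not pass (edgeR adjusted p = 0.316).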

How the results depend on the processing

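Over the 8 comparisons between groups, of 799 values of members under alternatives, 711 kept their direction and their side of the threshold, 46 lost the threshold, 15 passed it and 27 reversed. For the interaction, of 140 values 115 kept both, 15 lost the threshold, 4 passed it and 6 reversed. The number of members past the threshold moved as follows. Against control it was 3 in DMBA and 3 in TAM long after thinning, and 9 in DMBA+TAM with library size alone. In TAM short it was 0 with library size alone, with the replicate block, after thinning and with DESeq2, and 2 with only the groups compared. With a log2 change of at least 1 also required, it was 2 in DMBA and 2 in TAM long, fell to 0 for TAM short, and was 3 in TAM long against TAM short, 4 in DMBA+TAM against DMBA and 4 against TAM long. Without 1 library it ran from 3 to 6 in DMBA, TAM long and TAM long against TAM short, stayed at 0 in TAM short, and was 5, 7, 7 and 5 in DMBA+TAM against control, DMBA, TAM long and TAM short.

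Reversals concerned members that had not passed, apart from Mdm2 in TAM long against control, at 0.014 after thinning. Mdm2 in DMBA+TAM against control was 0.26 with library size alone and 0.086 after thinning. Trp53inp1 there was 0.41 with library size alone, 0.15 after thinning and 0.0088 with only the groups compared. Bax in TAM short against control was 0.014 after thinning, and Sesn2 in DMBA+TAM against TAM long was -0.14. Without 1 library, the values that changed sign had these ranges. In TAM long against control Bbc3 ran from -0.051 to 0.81. In TAM short against control Bbc3 ran from -0.094 to 0.66, Cdkn1a from -0.093 to 0.16 and Phlda3 from -0.41 to 0.033. In TAM long against TAM short Mdm2 ran from -0.016 to 0.078, Bbc3 from -0.29 to 0.46 and Sesn2 from -0.15 to 0.14. In DMBA+TAM Sesn2 ran from -0.12 to 0.50 against DMBA, from -0.19 to 0.43 against TAM long and from -0.21 to 0.41 against TAM short, and Bbc3 from -0.027 to 0.66 against DMBA. In the interaction Bbc3 ran from -0.55 to 0.31, Zmat3 from -0.042 to 0.39 and Sesn2 from -0.53 to 0.095. The causes were not tested.

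Little pairing by replicate number was seen: the correlation of replicate differences ran from -0.04 to 0.26 over 10 pairs of groups, with 1 above 0.1. These correlations cannot show whether libraries of the same number shared a culture or batch. With the replicate block Sesn2 in TAM long against TAM short was -0.0018 (with no filter, -0.022), Mdm2 in TAM short lost its call (edgeR adjusted p = 0.0618), as did Zmat3 in TAM long against TAM short (edgeR adjusted p = 0.0591).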
